A study of Homo sapiens with 6 samples.

Results

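The genes described here are 5 keratinocyte genes, KRTAP2-3, KRTAP2-4, SPRR2A, SPRR2D and PERP, found by gene name in a table of 402 genes. The table came from CAL-27, an established human line of oral squamous cell carcinoma, and holds 2 groups. The shYTHDC2 libraries (n = 3) are from CAL-27 cells with a knockdown of YTHDC2, an RNA helicase that binds N6-methyladenosine, and the NC libraries (n = 3) are from CAL-27 cells labelled only NC. All groups share the cell line, the labels call the 3 libraries of a group biological replicates, and they do not give the number of hairpins or clones. The authors marked each of the 402 genes as higher in shYTHDC2 and significant (100%), and the 5 genes were chosen by that higher FPKM in shYTHDC2 than in NC. Their differences are therefore given as a description, with no test. Genes outside the table were not analysed here. YTHDC2 is one of them, and so the knockdown itself was not checked in these libraries.

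Keratinocytes of squamous epithelium fill with keratin filaments, bind to one another through desmosomes and end as cornified cells. Keratin-associated proteins are cysteine-rich proteins that cross-link keratin filaments in the hair shaft. SPRR2 proteins are small proline-rich precursors that transglutaminases join into the cornified envelope, the protein shell under the membrane of a differentiating keratinocyte. PERP is a tetraspan membrane protein of the PMP22 family that is needed for stable desmosomes, the junctions on which keratin filaments are anchored, and it is a target of p53 and of p63, the regulator of stratified epithelium.

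Both gene pairs are products of close duplication, and their coding sequences are shown first since they decide how far the members of a pair can be told apart. KRTAP2-3 (ENSG00000212724, chr17:41059240-41060114) and KRTAP2-4 (ENSG00000213417, chr17:41065116-41065879) have 1 exon each and lie on the minus strand of GRCh38, with 5765 bases between their starts (positions from GENCODE 29). Their coding sequences have 384 bases without the stop codon and differ at 1 of them (99.74% identity), T333C, counted from 1 at the first base of the start codon with the KRTAP2-3 base first. Positions 304 to 363 are printed 5′ to 3′, from chr17:41059688-41059747 in KRTAP2-3 and chr17:41065483-41065542 in KRTAP2-4, both on the minus strand, with the differing base in capitals.
KRTAP2-3: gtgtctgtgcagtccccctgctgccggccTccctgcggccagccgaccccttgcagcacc
KRTAP2-4: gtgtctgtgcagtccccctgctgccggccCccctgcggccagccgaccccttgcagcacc
Outside the coding part the 2 transcripts, of 875 and 764 bases, differ more, and over their whole length they were 70.37% identical in a global alignment, where the SPRR2A and SPRR2D transcripts, of 709 and 782 bases, were 79.93% identical.

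SPRR2A (ENSG00000241794, chr1:153056113-153057537) and SPRR2D (ENSG00000163216, chr1:153039725-153041931) lie on the minus strand of chromosome 1 with 15606 bases between their starts. Each has 2 exons, and the coding sequence of 216 bases stands in 1 of them. The coding sequences differ at 4 bases (98.15% identity): C112T, T193C, A200G and G207C, with the SPRR2A base first. They are printed whole, in capitals where they differ, from chr1:153056520-153056735 in SPRR2A and chr1:153040131-153040346 in SPRR2D.
SPRR2A: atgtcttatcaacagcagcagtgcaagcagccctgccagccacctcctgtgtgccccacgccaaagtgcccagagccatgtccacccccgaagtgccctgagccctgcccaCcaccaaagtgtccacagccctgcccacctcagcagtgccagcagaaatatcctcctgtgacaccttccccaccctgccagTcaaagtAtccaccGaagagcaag
SPRR2D: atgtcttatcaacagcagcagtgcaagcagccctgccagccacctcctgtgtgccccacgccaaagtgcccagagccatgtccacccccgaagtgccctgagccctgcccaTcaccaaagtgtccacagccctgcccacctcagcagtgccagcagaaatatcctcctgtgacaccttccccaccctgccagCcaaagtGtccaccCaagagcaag
PERP (ENSG00000112378, chr6:138088505-138107511, minus strand) has 3 exons, a transcript of 4290 bases and a coding sequence of 579 bases. No annotated gene of GENCODE 29 overlaps any of the 5 genes on either strand (0 overlaps).

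Expression was deposited as FPKM, which divides fragments by the length of the transcript and by the size of the library, so levels can be compared between genes. The lowest shYTHDC2 library exceeded the highest NC library in 5 of 5 genes, a separation that 90.5% of the 402 listed genes share and that the choice of the genes sets. The levels spanned a wide range, from PERP at 69.5 ± 0.85 FPKM in shYTHDC2 and 33.2 ± 1.9 FPKM in NC (mean ± SD of 3 libraries, here and below) to KRTAP2-4 at 0.890 ± 0.15 FPKM in shYTHDC2 and listed at 0 in all NC libraries. In bulk RNA, fewer cells that express a gene and less RNA per cell cannot be told apart.

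**Figure D1:**
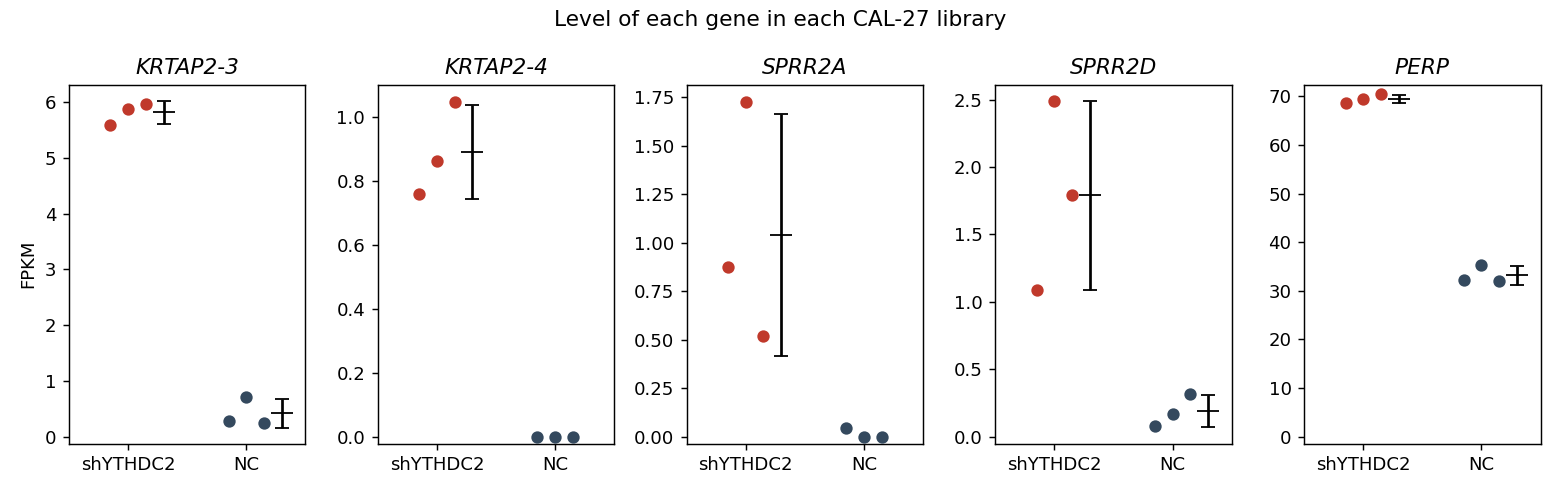
FPKM (vertical axis, linear, own scale in each panel) of the 5 genes in each shYTHDC2 and NC library, 1 point a library, with the mean and SD beside the points except where a library is listed at 0. Each panel has a gap between the groups, from 68.7 against 35.3 FPKM in PERP (lowest shYTHDC2 library and highest NC library) to 0.758 against 0 FPKM in KRTAP2-4.

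KRTAP2-3, a hair keratin-associated protein, had 5.59, 5.88 and 5.97 FPKM in the shYTHDC2 libraries, against 0.286, 0.716 and 0.247 FPKM in the NC libraries. The shYTHDC2 libraries lay close together (coefficient of variation 3.44%), whereas NC replicate 2 stood above the other NC libraries (coefficient of variation 62.5% in NC). The group means of 5.81 ± 0.20 FPKM in shYTHDC2 and 0.416 ± 0.26 FPKM in NC give a fold of 14.0. With each library left out the fold ran from 11.6 (without NC replicate 3) to 21.8 (without NC replicate 2). On the scale of log2(FPKM + 1), which understates the change of low genes, the difference was 2.28, the second of the 187 listed genes whose mean reached 1 FPKM in shYTHDC2 or NC.

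KRTAP2-4, its paralog, had 0.758, 0.863 and 1.05 FPKM in the shYTHDC2 libraries and was listed at 0 in the 3 NC libraries. In the authors' deposited table its fold of 8895 rests on 0.0001 in place of the NC mean of 0, so it is not a measured fold. Its difference on the log2(FPKM + 1) scale was 0.92, but with a mean under 1 FPKM it was the 1 gene of the 5 that did not pass the filter on low values. All 3 NC values of 0 for KRTAP2-4 stood beside NC levels of KRTAP2-3 that were at most 0.716 FPKM.

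The split of reads between these paralogs is uncertain, and so is the ratio between them in the deposited values. Of the 726 windows of 150 bases (the read length in the labels' protocols) in the KRTAP2-3 transcript, 214 (29.5%) also occur in a transcript of another gene. Those of KRTAP2-4 were shared at 270 of 615 (43.9%), in each case with KRTAP2-1, KRTAP2-2 or the other member of the pair. KRTAP2-4 stood at 13.6%, 14.7% and 17.5% of the KRTAP2-3 level in the shYTHDC2 libraries, and at 0% in each NC library. Summed within each library, both genes had 6.35, 6.74 and 7.02 FPKM in shYTHDC2, against 0.286, 0.716 and 0.247 FPKM in NC. The fold of the sums was 16.1. With each library left out it ran from 13.4 (without NC replicate 3) to 25.1 (without NC replicate 2). The sum still depends on the split through the transcript lengths of 875 and 764 bases by which FPKM divides. It also depends on how reads of windows shared with KRTAP2-1 and KRTAP2-2, which are not in the sum, were assigned.

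SPRR2D, a cornified envelope precursor, had 1.09, 2.49 and 1.79 FPKM in the shYTHDC2 libraries, against 0.0785, 0.169 and 0.313 FPKM in the NC libraries. The groups did not overlap, but both were spread widely, by 39.0% (coefficient of variation) in shYTHDC2 and 63.3% in NC. The means of 1.79 ± 0.70 FPKM in shYTHDC2 and 0.187 ± 0.12 FPKM in NC give a fold of 9.56. With each library left out the fold ran from 7.41 (without NC replicate 1) to 14.4 (without NC replicate 3). The lowest shYTHDC2 library was 3.48 times the highest NC library.

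SPRR2A, the second precursor, had 0.873, 1.73 and 0.517 FPKM in the shYTHDC2 libraries, against 0.0440, 0 and 0 FPKM in the NC libraries. Only NC replicate 1 of the 3 NC libraries carried signal, so the fold of 70.8 in the authors' deposited table rests on that library. The coefficient of variation in shYTHDC2, 59.9%, exceeded that of 116 of the 122 listed genes with a shYTHDC2 mean between 0.5 and 2 FPKM, whose median was 19.1%. SPRR2D exceeded 104 of the same 122 genes, and KRTAP2-4, at 16.5%, exceeded 50 of them.

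Both SPRR2 genes had their highest level in shYTHDC2 replicate 2, the library that was neither highest nor lowest for KRTAP2-3, KRTAP2-4 and PERP. SPRR2A stood at 80.2%, 69.5% and 28.9% of SPRR2D in the shYTHDC2 libraries, with a mean of 59.5% and an SD of 27.1 percentage points. The ratio of the KRTAP2 pair in shYTHDC2 had a lower mean, 15.3%, and an SD of 2.05 percentage points. The sum of both SPRR2 genes had 1.96, 4.21 and 2.31 FPKM in shYTHDC2, against 0.123, 0.169 and 0.313 FPKM in NC, a fold of 14.0 that ranged from 10.6 to 19.4 with each library left out. Of the windows of 150 bases, 59 of 560 in SPRR2A (10.5%) occur in another gene, SPRR2B or SPRR2E, and 0 of 633 in SPRR2D. At 75 bases, the shared part was 23.9% in SPRR2A and 12.3% in SPRR2D, among genes of the SPRR2 family.

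**Figure D2:**
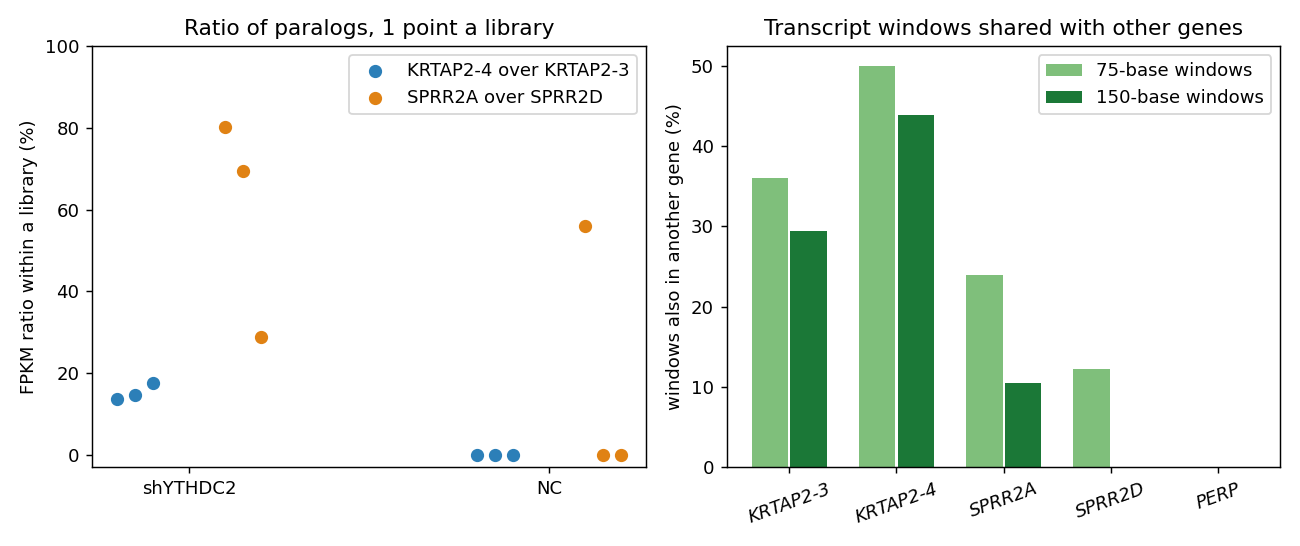
Left, FPKM of KRTAP2-4 as a percentage of KRTAP2-3 and of SPRR2A as a percentage of SPRR2D within each shYTHDC2 and NC library, 1 point a library. Right, the percentage of 75-base and 150-base windows of each transcript that also occur exactly in a transcript of another gene, highest in KRTAP2-4 (50.0% and 43.9%) and near 0 in PERP (0.07% and 0%).

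PERP, the desmosomal protein, had 68.7, 69.4 and 70.4 FPKM in the shYTHDC2 libraries, against 32.2, 35.3 and 32.0 FPKM in the NC libraries. It was the most even of the 5 genes, with a coefficient of variation of 1.23% in shYTHDC2 and 5.69% in NC. The fold was 2.10, rank 250 of the 287 listed genes with signal in every NC library, whose median fold was 2.49. PERP was the seventh most abundant gene of the table in shYTHDC2 and the fourth in NC. The q-value of PERP in the authors' deposited table, 6.01e-117, was the smallest of the 5, against 1.26e-18 for KRTAP2-3, 1.25e-06 for KRTAP2-4, 4.58e-06 for SPRR2D and 1.16e-04 for SPRR2A. These q-values come from the same contrast that chose the genes, so they are a description and no separate support. The PERP transcript shares 3 of 4216 windows of 75 bases with other genes, and none of 150 bases (0 of 4141).

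In the order of levels, PERP stood first and KRTAP2-3 after it in both groups. In shYTHDC2, PERP, KRTAP2-3 and SPRR2D did not overlap one another, while SPRR2D overlapped SPRR2A and SPRR2A overlapped KRTAP2-4. In NC, KRTAP2-3 and SPRR2D overlapped, since the lowest KRTAP2-3 library (0.247 FPKM) lay under the highest SPRR2D library (0.313 FPKM), and SPRR2A and KRTAP2-4 shared values of 0. The differences on the log2(FPKM + 1) scale were 2.28 for KRTAP2-3, 1.21 for SPRR2D, 1.05 for PERP, 0.96 for SPRR2A and 0.92 for KRTAP2-4, against a median of 0.88 over the 187 listed genes at or above 1 FPKM and 0.53 over all 402.

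**Figure D3:**
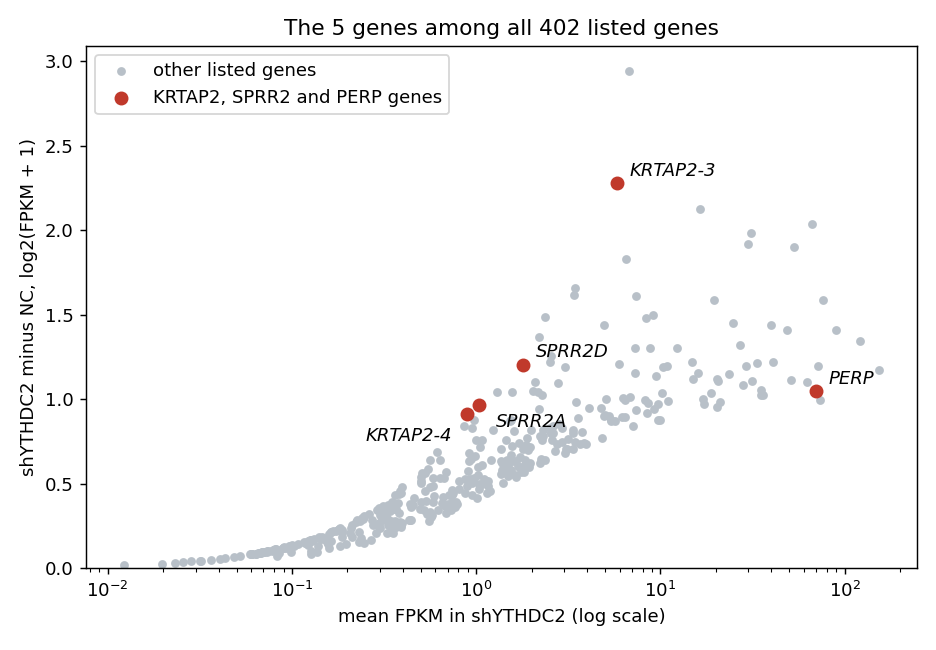
Difference between shYTHDC2 and NC on the log2(FPKM + 1) scale (vertical axis) against the mean FPKM in shYTHDC2 (horizontal axis, log scale) for the 402 listed genes, 1 point a gene. KRTAP2-3 (2.28) is the second highest point, and PERP (1.05) lies among the lower points at its level of 69.5 FPKM.

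The listed KRTAP2 and SPRR2 genes sit inside large clusters of related genes. The cluster on chromosome 17 holds 34 protein-coding KRTAP genes over 322.3 kb, of which the table lists 2, the neighbours KRTAP2-3 and KRTAP2-4. Genome-wide the count is 2 of 94 KRTAP genes and 2 of the 4 KRTAP2 genes. Of 38 genes of the epidermal differentiation complex on chromosome 1 that were counted (SPRR, LCE and filaggrin-type genes, IVL and LOR, over 1178 kb), the table lists 2, SPRR2A and SPRR2D, which are also 2 of the 6 SPRR2 genes. A gene outside the table was not shown to be unchanged, only not among the genes analysed here.

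**Figure D4:**
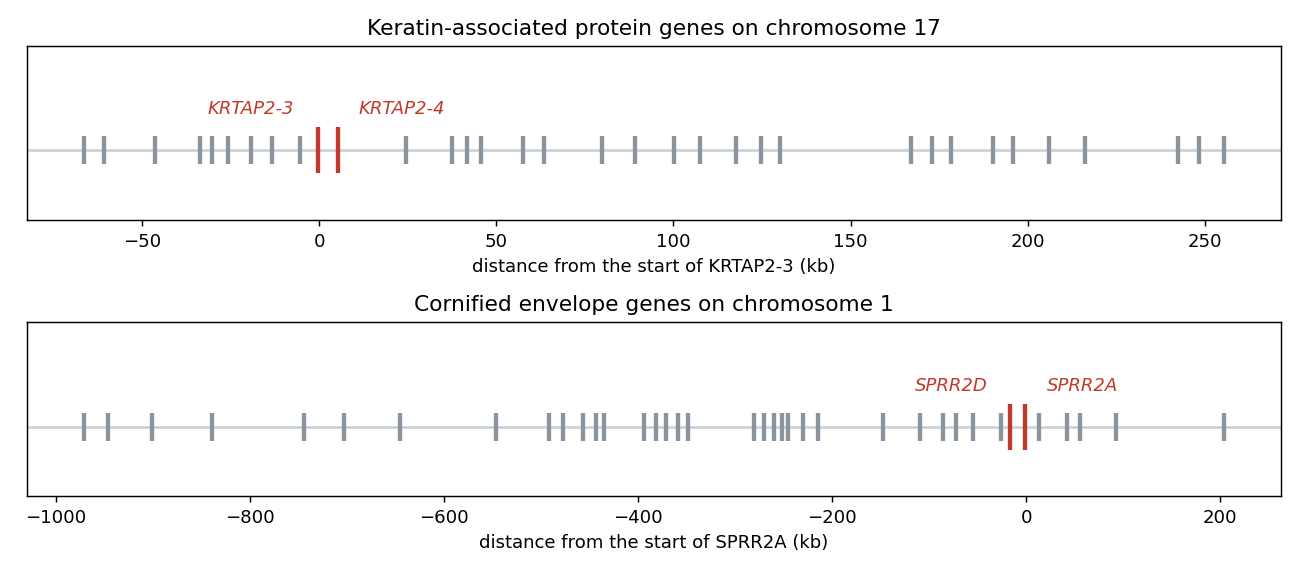
Positions of the KRTAP genes of chromosome 17 and the cornified envelope genes of chromosome 1, as the distance in kb from the start of KRTAP2-3 and of SPRR2A (positive towards higher coordinates), with listed genes as tall red marks and other genes as grey marks. Of 34 and 38 genes, 2 each are listed, and in both clusters they are next to each other.

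Within 1 Mb of its start, KRTAP2-3 had 133 genes, 92 of them protein-coding, and the table lists 3. These are KRTAP2-4 and 2 further genes, a count too small to set the region apart from the 1.47% of all protein-coding genes listed. IGFBP4, which binds insulin-like growth factors, starts 616.7 kb from KRTAP2-3 and had 8.22, 8.27 and 8.13 FPKM in shYTHDC2, against 3.45, 3.31 and 4.15 FPKM in NC. FKBP10, a prolyl isomerase that assists collagen folding, starts 752.6 kb away and had 7.92, 6.56 and 6.84 FPKM in shYTHDC2, against 3.27, 3.78 and 3.51 FPKM in NC. Neither gene's groups overlapped, as in 90.5% of the 402 listed genes. The folds were 2.26 for IGFBP4 and 2.02 for FKBP10, against 14.0 for KRTAP2-3. The smallest fold of any listed gene was 2.00, so neither fact sets these neighbours apart. The SPRR2 genes had no other listed gene among the 120 genes around SPRR2A besides SPRR2D, and PERP had 1 of 32, a processed pseudogene.

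Other genes of the same structures were counted against the share of all genes in the table, which lists 294 of the 19951 protein-coding genes of GENCODE 29 (1.47%). At that share lists of this size would hold few genes or none, so the counts set no list apart. The table listed 0 of 55 keratins, 0 of 14 genes of the desmosome, 0 of 53 other genes of cornified envelope and squamous differentiation, and 0 of 40 targets of p53 and p63. PERP itself was left off both the desmosome list and the list of p53 and p63 targets. Of 30 SPRR and LCE genes and 94 keratin-associated proteins, those listed were the members themselves. The list of the PMP22 family, which leaves PERP out, had 1 of 6 genes in the table, the related tetraspan gene EMP3. EMP3 had 5.82, 7.13 and 5.50 FPKM in shYTHDC2, against 2.45, 2.87 and 3.21 FPKM in NC, without overlap, as in 90.5% of the 402 listed genes. NGFR, a neurotrophin receptor of basal keratinocytes (1 of 17), had 1.98, 1.31 and 1.88 FPKM in shYTHDC2, against 1.07, 0.416 and 0.710 FPKM in NC. Both were among the genes called higher by limma (EMP3 log2 difference 0.89, SE 0.11, adjusted p = 3.98e-05, and NGFR 0.66, SE 0.16, adjusted p = 2.40e-03), as were 98.9% of the 187 genes tested, so the calls set neither apart.

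Annotations deposited with the table were counted as well. Besides SPRR2A and SPRR2D, 1 listed gene carried the term cornified envelope, SERPINB2, an inhibitor of plasminogen activators. The terms keratin filament and formation of hair keratin fibres were carried by KRTAP2-3 and KRTAP2-4 alone, and the term desmosome by PERP alone.

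Markers that define other cell types were listed at 0 of 12 for fibroblasts, 0 of 16 for leukocytes, 0 of 13 for simple glandular epithelium and 0 of 7 for melanocytes in the table. Lists of this size are too small for a 0 to be read as absence beside the 1.47% of all protein-coding genes. Endothelial markers were listed at 2 of 10, above that share, in a list as short. The endothelial markers were CDH5, with 3.12 ± 0.41 FPKM in shYTHDC2 and 1.52 ± 0.12 FPKM in NC, and ESAM, with 0.736 ± 0.099 FPKM in shYTHDC2 and 0.286 ± 0.10 FPKM in NC, and their part in the levels of the 5 genes was not tested. Outside these lists, the table holds genes that fibroblasts or leukocytes also express. Of these, FN1, the matrix protein fibronectin, had 21.1 ± 1.5 FPKM in shYTHDC2 and 10.2 ± 0.76 FPKM in NC, and COL5A1, a collagen chain, had 31.2 ± 0.96 FPKM in shYTHDC2 and 13.9 ± 0.68 FPKM in NC. IL7R, a cytokine receptor of lymphocytes, had 39.6 ± 1.6 FPKM in shYTHDC2 and 13.9 ± 0.15 FPKM in NC. LOX, VIM, LCP1 and ALOX5AP were listed as well, with means of 0.918 to 8.49 FPKM in shYTHDC2 and 0.186 to 4.02 FPKM in NC. Their part in the levels of the 5 genes was not tested either. The markers of the labelled squamous type could not be checked for their level, since the keratins and other defining genes were not analysed here.

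The promoters are shown because members that lay higher together can be compared letter by letter there. RefSeq (GRCh38.p14) gave a promoter for 4 of the 5 genes, KRTAP2-3, KRTAP2-4, SPRR2A and PERP. The 250 bases before each RefSeq start, which for SPRR2A and PERP is not the GENCODE 29 start, are printed 5′ to 3′ on the gene's strand (minus for all), with matches to the motifs searched in capitals. In the order printed they span chr17:41060115-41060364, chr17:41065880-41066129, chr1:153057513-153057762 and chr6:138107420-138107669.
KRTAP2-3: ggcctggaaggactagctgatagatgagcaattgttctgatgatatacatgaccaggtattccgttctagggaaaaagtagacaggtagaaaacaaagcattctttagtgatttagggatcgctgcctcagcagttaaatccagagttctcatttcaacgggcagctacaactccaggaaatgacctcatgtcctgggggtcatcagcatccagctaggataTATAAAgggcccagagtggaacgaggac
KRTAP2-4: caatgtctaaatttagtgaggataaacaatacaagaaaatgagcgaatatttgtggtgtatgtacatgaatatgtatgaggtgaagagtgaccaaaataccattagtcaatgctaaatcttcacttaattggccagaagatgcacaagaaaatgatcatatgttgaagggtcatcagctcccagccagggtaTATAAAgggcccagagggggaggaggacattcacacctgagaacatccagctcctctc
SPRR2A: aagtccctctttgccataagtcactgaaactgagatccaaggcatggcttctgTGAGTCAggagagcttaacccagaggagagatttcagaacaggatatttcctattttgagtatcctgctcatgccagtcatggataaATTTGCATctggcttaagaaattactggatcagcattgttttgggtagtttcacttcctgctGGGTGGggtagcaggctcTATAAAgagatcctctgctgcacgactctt
PERP: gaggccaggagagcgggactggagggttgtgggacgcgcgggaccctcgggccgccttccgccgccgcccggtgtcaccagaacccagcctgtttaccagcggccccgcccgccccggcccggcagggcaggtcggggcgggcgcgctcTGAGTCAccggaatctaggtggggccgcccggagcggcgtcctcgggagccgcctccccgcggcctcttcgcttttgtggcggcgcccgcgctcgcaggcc
The motifs searched on both strands were TATAAA for the TATA box, TGANTCA for AP-1, ATGCAAAT for the octamer, CCACCC for the KLF core and the interferon response core, over 300 bases that run 50 bases past the start.

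TATAAA was found 28 bases before the start of KRTAP2-3, 58 before that of KRTAP2-4 and 30 before that of SPRR2A, counted to the first base of the match, but not in PERP. Counted to the start codon, the matches of KRTAP2-3 and KRTAP2-4 stand equally far away, so their distances differ only by the annotated starts. The share of all 35116 promoter windows of that length with a match is 11.53%. TGAGTCA, an AP-1 match, stood 197 bases before SPRR2A and 101 bases before PERP (7.71% of all windows). SPRR2A also held the octamer on the opposite strand, 110 bases before its start (1.77% of all windows), and the KLF core on the opposite strand, 48 bases before it (34.29%). The interferon response core was in none of the 4 windows (3.57% of all windows). PERP has a GC content of 77.2% in these bases, against 46.0%, 40.8% and 44.8% in KRTAP2-3, KRTAP2-4 and SPRR2A and a median of 58.0% over all promoters. The matches overlap no other match and are descriptions of letters, not of bound sites.

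**Figure D5:**
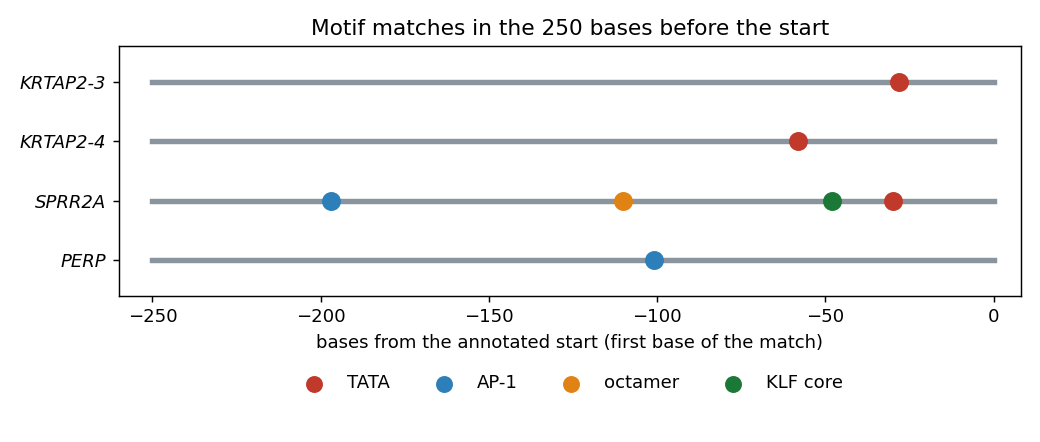
Motif matches (coloured points, at the first base of the match) in the 250 bases before the annotated start of KRTAP2-3, KRTAP2-4, SPRR2A and PERP, with the distance from the start in bases on the horizontal axis. The KRTAP2 genes hold a TATA match alone, at 28 and 58 bases, SPRR2A holds 4 matches, and PERP holds an AP-1 match at 101 bases.

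The genes whose pattern over the 6 libraries was most like each member were named by Pearson's r of log2(FPKM + 1). The candidates were 170 listed genes (169 for the SPRR2 pair) with a symbol and a mean of at least 1 FPKM in shYTHDC2 or NC. A member's own family was left out, so its paralog was not a candidate. The listed genes were all selected as higher in shYTHDC2, and the r of each member with these genes had a median of 0.973 for KRTAP2-3, 0.969 for KRTAP2-4, 0.875 for SPRR2A, 0.912 for SPRR2D and 0.976 for PERP. KRTAP2-3 was most like PERP (0.999) and G3BP2, a stress granule protein (0.998). PERP in turn was most like G3BP2 (0.9995) and the tropomyosin TPM4 (0.999). KRTAP2-4 was most like OGFRL1 and ZNF616 (0.999 and 0.998), SPRR2A like the kinase ULK2 and ZNF267 (0.980 and 0.965), and SPRR2D like the pseudogene NAP1L4P1 and CAPSL (0.987 and 0.977). These values share their libraries and the group gap and carry no test.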

How the data were processed

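Per the labels' protocols, poly(A) RNA of CAL-27 cells was made into dUTP-marked paired-end libraries. The tools in the submitters' processing notes are edgeR, fastp, HISAT2 and StringTie, with no version or role, and the build is GRCh38. The gene annotation is not given in the sources used here. Per the file headers, the authors deposited FPKM per library, their fold (a ratio of the group means of FPKM), its log2, and p-values and q-values whose test is not named. Depth is unknown: low FPKM values times transcript length, for 112 genes with 1 transcript, were whole multiples (within 0.05) of the smallest in 5.26% to 15.0% of genes, so no read step was found, and no counting interval is given.

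Levels and differences of log2(FPKM + 1) were computed with pandas 2.3.3. The fit across the table used limma 3.58.1 in R 4.3.3 with trend and robust variance on the 187 genes whose mean reached 1 FPKM in shYTHDC2 or NC, Benjamini-Hochberg adjustment and a threshold of 0.05; it was tested on simulated data. The labels call the libraries of a group biological replicates and do not say how these were kept apart, so p-values reflect the spread of these libraries. Within groups, libraries correlated at 0.984 to 0.989, and 0 values above 0 were identical in any pair. Deviations from the group mean correlated at 0.0589, 0.151 and 0.0734 between libraries of the same number. Between different numbers the correlations were lower, from -0.125 to 0.0495. All were weak and the labels state no pairing, so the numbers were not taken as pairs in the main fit. Coding sequences and shared windows come from GENCODE 29 transcripts (Biopython 1.88, global alignment, match 2, mismatch -1, gap opening -5, extension -1), promoters from RefSeq. The 5 members, the 13 gene lists, the motifs and the rule for named genes (list members in the table, up to 5 a list, the 2 most alike genes, listed neighbours within 1 Mb) were chosen with earlier results of these data known. CDH5, ESAM, the 7 further fibroblast and leukocyte genes and the annotation terms were named after their values were seen. Alternatives were other pseudocounts and filters, limma without trend, the replicate number as a block, centring on the median listed gene, and each library left out.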

Additional observations from a re-analysis of the deposited data

How the results depend on the processing

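On the log2(FPKM + 1) scale each of the 5 genes and both sums stayed above 0 under every alternative run. Except for centring, the choice of genes higher in shYTHDC2 sets that outcome, so only the sizes are informative. Centring uses the same contrast and is no separate support, and it left KRTAP2-4 and SPRR2A near 0. With each library left out the difference was 2.20 to 2.43 for KRTAP2-3, 0.86 to 0.97 for KRTAP2-4, 0.73 to 1.16 for SPRR2A, 1.03 to 1.40 for SPRR2D, 1.02 to 1.09 for PERP, 2.37 to 2.60 for the KRTAP2 sum and 1.38 to 1.79 for the SPRR2 sum. A pseudocount of 0.1 gave 3.63 for KRTAP2-3, 3.30 for KRTAP2-4, 3.19 for SPRR2A, 2.73 for SPRR2D, 3.83 for the KRTAP2 sum and 3.25 for the SPRR2 sum. A pseudocount of 0.01 gave 3.93, 6.48, 5.73, 3.30, 4.14 and 3.77 in the same order, by its construction larger for low genes. Centring each library on the median listed gene took off 0.90 and left 1.38 for KRTAP2-3, 0.0111 for KRTAP2-4, 0.0598 for SPRR2A, 0.30 for SPRR2D, 0.14 for PERP, 1.55 for the KRTAP2 sum and 0.73 for the SPRR2 sum. The mean of the log2 differences of a pair, in place of its sum, was 1.60 for KRTAP2 and 1.08 for SPRR2. The 185 listed genes higher and 0 lower became 342 and 0 with no filter, since more genes were tested, and 36 and 15 when centred, which takes the typical listed gene as equal between groups. With each library left out 183 to 187 were higher and 0 lower (limma, and 0 lower at an unadjusted p under 0.05 in the main filter, a count that the selection of the table sets), and a fit with a replicate block gave 183 higher. The labels state no pairing, and the block leaves the members' differences as they are. With the filter of 1 FPKM, the keratin-associated protein list and the endothelial list each had 1 gene in the table in place of 2. With depth unknown, no counting error can be set beside the low values, those of KRTAP2-3 in NC included.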
